A study of Rattus norvegicus with 12 samples.

Results

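Major urinary proteins, called alpha-2u globulins in the rat, are small secreted proteins of the lipocalin family. Probes were taken as members where their RefSeq accession mapped to Mup4, Mup5, Mup4l1, Mup4l3, Mup4l4 or Obp3, or where the array's own description named a major urinary protein or an alpha-2u globulin. The 6 genes are among 15873 with a symbol and a probe. The rule gave 14 of the 41012 probes on the array, 6 through the accessions of the 6 named genes and 8 through the description. Of these, 13 passed the filter on dim signal (3 or more of the 12 arrays well above background), as did 28175 probes in all, and the 14th, described as alpha-2u globulin-like, was not well above background on any array. The 8 probes found by description are called here by the clone that the array names (PGCL1, PGCL5 and PGCL7), or as the alpha-2u globulin gene probe.

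Lipocalins fold into a barrel that holds small hydrophobic molecules, and major urinary proteins carry pheromones and other odorants in the urine of rodents. In the rat they are made mainly by hepatocytes of adult males, secreted into the blood and filtered into urine. Their genes are textbook targets of androgens, of the pulsed growth hormone secretion of males, of thyroid hormone and of glucocorticoids, while estrogen lowers them. Glucocorticoids act through the glucocorticoid receptor, a transcription factor that dexamethasone activates.

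The series asks how glucocorticoids regulate liver genes in the sexes. All rats were adrenalectomized Sprague-Dawley animals aged 8 to 10 weeks, and so lacked their own adrenal steroids, and the females were in Diestrous 1 of the cycle. The 4 groups were males and females given phosphate buffered saline as vehicle, and males and females given dexamethasone at 1 mg/kg by intraperitoneal injection, with the liver taken 6 h later. Each group had 3 single-colour arrays, and an array held the pooled RNA of 3 animals (9 in a group), so p-values rest on the spread between pools and say nothing of single animals.

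On a single array between 53.0% and 69.7% of probes were well above background, no spot was saturated, and the number of arrays limits the precision. The arrays lay on 5 slides, and slide 5 held replicate 3 of all 4 groups. Slide 4, in a scan session of its own, held only female dexamethasone replicates 1 and 2. Slide 3, likewise, held only male vehicle replicate 1. For these arrays group and slide cannot be told apart. The 7 hepatocyte markers, albumin among them, were well above background on all arrays, and none of them passed the test in any comparison. Of 5 lacrimal, salivary and preputial gland markers, glands that also make alpha-2u globulins, 3 had a probe and none of these was well above background on any array. The probe named for the Y-linked gene Uty was well above background on all 12 arrays, those of females included, and read higher in females, by 0.87 on the log2 scale after vehicle and 0.82 after dexamethasone (adjusted p = 0.0122 and 0.0155, limma). This runs against a Y-linked transcript, so the probe did not check the labelled sex. Of 8 male-biased liver genes, all 8 were lower in females after vehicle and after dexamethasone, without exception. Over all probes 0.937% and 0.958% passed the test as lower in females.

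The family is so alike in sequence that a probe cannot be taken to read 1 gene. The probe sequences below, taken from the scanner files and written 5′ to 3′, are those that overlap each other. Capitals mark bases that differ from PGCL5 probe a in the first set and from the Obp3 probe in the second.
PGCL5 probe a: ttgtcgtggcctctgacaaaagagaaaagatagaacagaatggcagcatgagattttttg
PGCL1 probe a: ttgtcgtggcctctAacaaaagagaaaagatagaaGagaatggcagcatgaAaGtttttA
Mup4l3: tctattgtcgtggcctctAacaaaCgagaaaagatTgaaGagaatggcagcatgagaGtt
Mup4l1: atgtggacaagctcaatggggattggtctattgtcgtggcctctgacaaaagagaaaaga
Obp3: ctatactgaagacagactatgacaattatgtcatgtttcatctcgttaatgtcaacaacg
Mup4: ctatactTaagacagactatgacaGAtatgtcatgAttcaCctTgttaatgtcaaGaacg
PGCL5 probe a and PGCL1 probe a cover the same 60 bases with 5 differences, and Mup4l3 shares 56 bases with PGCL5 probe a, again with 5 differences. Mup4l1 and PGCL5 probe a were identical over the 30 bases where they overlap. Obp3 and Mup4 differed at 7 of 60 bases. Transcripts of one gene may therefore bind the probe of another, which was not tested. Agreement among the first 4 probes, or between Obp3 and Mup4, is thus not evidence from separate genes.

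The other probes shared no stretch of at least 20 bases at 80% identity with another member. Shorter overlaps were not searched, so these probes are not shown to lie apart from the rest. Those of Mup5 and Mup4l4 are shown because they stand for the family in the values that follow.
Mup5: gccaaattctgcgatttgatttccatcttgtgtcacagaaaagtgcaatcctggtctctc
Mup4l4: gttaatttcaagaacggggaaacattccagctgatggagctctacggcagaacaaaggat
A probe without a close copy on the array can still bind several transcripts, since the gene cluster holds further members. Of the 40998 probes outside the family, 1 shared a run of 20 bases with a member, on the opposite strand of the Mup5 probe. That probe, which the array names Cald1, stood at 0.47 to 1.10 in males given vehicle and at -4.00 to -2.63 in females given vehicle, a log2 difference of -4.19 ± 0.79 (SE, limma, adjusted p = 0.0249). A second probe named Cald1, without that run, differed alike, by -4.15 ± 0.68 (adjusted p = 0.0109), and the other probe of that name had 0.07 ± 0.17 (adjusted p = 0.964).

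All levels are the log2 signal of a probe minus the 75th percentile of its array. They compare arrays for a given probe and do not order the genes by abundance. A probe was called where limma, fitted to all 28175 probes, gave an adjusted p (Benjamini-Hochberg) under 0.05.

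The question of the sex difference was asked first in animals given vehicle. Probes of the family were far lower in female than in male livers, and 12 of the 13 passed the test, all in that direction. For 3 probes (Mup4, Obp3 and the alpha-2u globulin gene probe) no female array was well above background and only a bound holds, given below. The log2 differences of the other 10 ran from -9.66 to -7.29, and the median of the 13, with those 3 at their bound, was -9.33, where the median over all probes was 0.02. Of all probes 1.67% were called, 0.937% as lower in females. Male and female arrays lay fully apart, without overlap, for all 13 probes, as they did for 15.4% of all probes.

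Mup4l4, a major urinary protein gene, stood at 8.54, 7.42 and 9.62 in the arrays of males given vehicle and at -0.53, 0.34 and -0.80 in those of females. All male arrays lay above all female arrays by several log2 units, and the spread among males was the wider. The difference was -8.86 ± 0.86 (SE, limma, adjusted p = 0.000347), or 464-fold.

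A pair of probes with no shared stretch carries the name Mup5, the first matched by accession and the PGCL7 clone by description alone. Which transcripts either binds was not tested. The probe matched by accession stood at 8.71, 8.09 and 9.90 in males and 0.64, 1.22 and 0.14 in females. The groups were well apart, with the second male array the lowest of its group. The difference was -8.23 ± 0.87 (SE, adjusted p = 0.000599 in limma), and for the PGCL7 clone it was -9.38 ± 0.87 (adjusted p = 0.000255).

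Obp3, an odorant-binding lipocalin of the same gene cluster, stood at 4.94, 1.26 and 5.78 in males and at -6.45, -5.37 and -5.57 in females. No female array given vehicle was well above background for Obp3, so only a bound on the fold could be given. Against the dimmest signal well above background on each female array (mean -4.11), the mean male level was at least 275-fold higher (adjusted p = 0.00108, limma, measured means 3.99 and -5.80). Such bounds use group means and leave out the spread between arrays, so they are not confidence limits. For Mup4 the male arrays read 4.49, 1.61 and 5.19 and no female array was well above background. The second male array was again the lowest, and the bound was at least 234-fold (adjusted p = 0.000199, limma, measured means 3.76 and -6.11).

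Mup4l1 and Mup4l3, neighbours of Mup5 in the cluster, were lower in females by 9.33 and 9.66 on the log2 scale, fitted differences of -9.33 ± 1.01 and -9.66 ± 0.95 (adjusted p = 0.00124 and 0.000376, limma). The spots of Mup4l1, PGCL5 probe b and PGCL1 probe a on the first male vehicle array were flagged as outliers by the scanner software, so these 3 probes rest on 2 male vehicle arrays. PGCL1 probe b, whose sequence lies apart from the other PGCL1 probe, had the smallest difference of the 13, at -7.29 ± 0.78.

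The probe that did not pass was the alpha-2u globulin gene probe. In males given vehicle it stood at 4.23, -3.02 and 4.52, and in females at -6.12, -4.79 and -5.58. The second male array lay over 7 log2 units below the other 2, yet still above the females. The fitted difference was -7.40 ± 1.65 (limma, adjusted p = 0.0575, interval of 95% from -11.05 to -3.75). No female array was well above background, and the bound from the group means was at least 64.8-fold. That bound leaves out the wide spread among the male arrays, and the interval reaches smaller differences. Without the second male vehicle array the difference of this probe was -9.87 ± 0.73 (adjusted p = 0.000183), and over the other settings that kept this array the adjusted p ran from 0.0218 to 0.181.

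After dexamethasone the sex difference stood in all 13 probes, each lower in females. For 12 of them, without Mup4, the log2 differences ran from -9.36 to -7.49, and the median of the 13, with Mup4 at its bound, was -8.63, against -0.01 over all probes. Of all probes 2.23% were called in this comparison, 0.958% as lower in females. The sexes lay fully apart, without overlap, for all 13 probes, as they did for 22.8% of all probes.

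Mup4l4 stood at 8.53, 8.41 and 9.35 in males given dexamethasone and at 0.79, -2.04 and 1.73 in females. Here the females were the more spread group, with replicate 2 the lowest. The difference was -8.60 ± 0.86 (adjusted p = 0.000504, limma), or 389-fold. For Mup5 the male arrays read 9.03, 9.13 and 9.91, the female arrays 1.29, -1.42 and 2.74, and the difference was -8.48 ± 0.87 (adjusted p = 0.000575).

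Obp3 read 3.70, 3.32 and 4.89 in males and -4.76, -6.48 and -3.06 in females, of which 1 array was well above background. The sexes were again apart on every array. The fitted difference was -8.74 ± 1.12 (adjusted p = 0.00232, limma), but with 2 of the 3 female arrays at background its size is uncertain. Mup4 was not well above background in any female given dexamethasone, and its male level was at least 219-fold higher (adjusted p = 0.000504, limma, measured means 3.37 and -5.46). The alpha-2u globulin gene probe, at 3.65, 3.33 and 5.65 in males and -3.96, -4.42 and -2.64 in females, passed here, with -7.88 ± 1.65 (adjusted p = 0.0359, limma). That call was lost without any 1 of 8 arrays (male dexamethasone 1, 2 or 3, female vehicle 1 or 2, or female dexamethasone 1, 2 or 3), at adjusted p from 0.0556 to 0.133, and with no filter on dim probes (0.0528).

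Signal in females was low but measured. The 8 probes well above background on all 12 arrays included Mup5, whose processed intensity in females given vehicle was 384, 504 and 171 units against 91744, 69121 and 180626 in males. The female arrays were thus far dimmer but not at background. Which transcripts gave this signal was not tested, given the likeness of the probes.

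**Figure D1:**
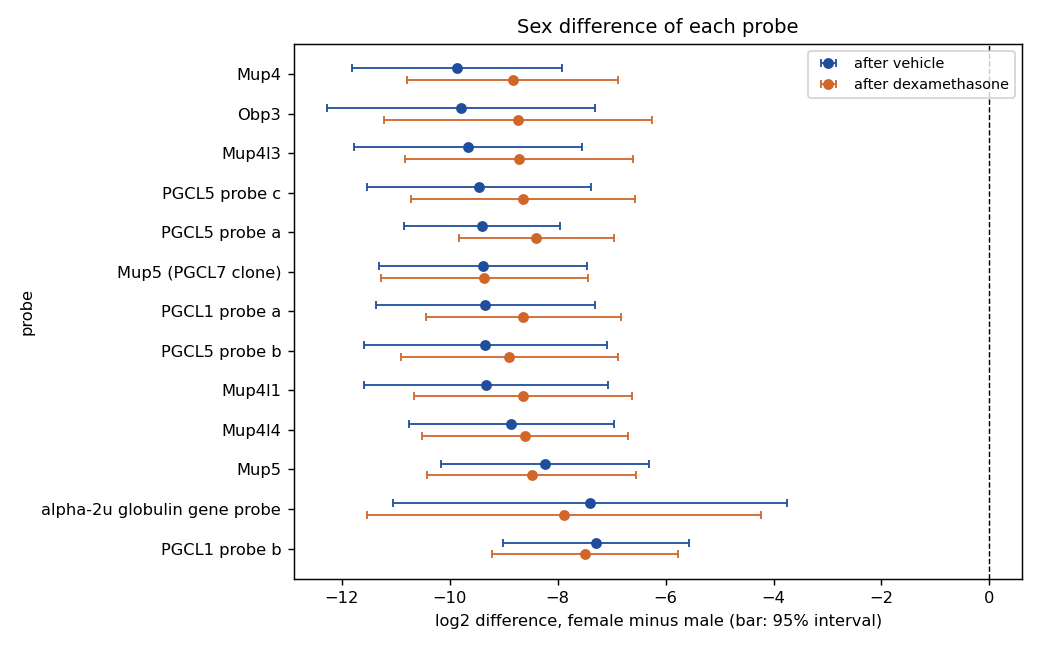
Female minus male log2 difference (x axis) of the 13 probes (y axis) after vehicle and after dexamethasone, with 95% intervals from limma. Every interval lies below 0, and the fitted medians are -9.34 after vehicle and -8.64 after dexamethasone. Fitted values of probes at background in females, Mup4 among them, are not bounds.

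In bulk liver, fewer cells of a type and less RNA per cell cannot be told apart. The summed linear level of the 5 exocrine pancreas markers was 6.03 to 15.3 in males over both treatments and 1.24 to 3.74 in females, with Amy2a3, Pnlip and Prss1 not well above background on any array. Only 2 of the 5 passed the filter. Their female minus male log2 differences were -2.02 and -0.84 after vehicle, and -1.91 and 0.37 after dexamethasone, so the sum does not stand for each marker. The hepatocyte sum was 3593 to 6952 in males and 5165 to 7431 in females. The part of these markers in the sex difference was not tested.

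Ranked by the difference after vehicle among the 26404 probes with a measured level on both sides, family probes took ranks 1 to 7, and 10 of the 15 lowest in females. Cyp2c13 and Cyp2c11, male-specific cytochromes P450, took ranks 8 and 9. After dexamethasone, 12 of the 14 lowest of 25952 probes were family probes, and the other 2 were again Cyp2c13 and Cyp2c11. Obp3, ranked 3 there, rests on 1 female array above background. Probes with no array well above background in a sex were not ranked. Among those left out were Hsd3b5 (fitted -9.89 after vehicle, -8.36 after dexamethasone) and Sult1e1 (-9.04 and -7.93). The fitted value of Hsd3b5 after vehicle lay below that of every ranked probe. These ranks describe the arrays and carry no test.

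Whether dexamethasone changed the family was asked in each sex. No member passed the test in males. Of the 13 probes, 0 were called by limma and 0 had an unadjusted p under 0.05, where 19.7% of all probes were called. The log2 differences ran from -0.39 to 2.30 with a median of 0.09, against 0.00 over all probes, and the treated and untreated arrays overlapped for all 13 probes, against 35% of all probes that did not overlap.

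For Mup4l4 the arrays of males given vehicle and dexamethasone listed above interleave, and the difference was 0.24 with an interval of -1.67 to 2.14. For Mup5 it was 0.46 with an interval of -1.47 to 2.39, for Obp3 -0.02 with -2.51 to 2.46, and for Mup4 -0.39 with -2.34 to 1.56. The intervals reach past 1 log2 unit on either side for all 13 probes, so a change of 1 log2 unit was not detectable here and is not shown to be absent. The alpha-2u globulin gene probe had the highest difference, 2.30 with an interval of -1.35 to 5.95, and its second vehicle array was the low one described above.

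In females all 13 differences were above 0, but none passed, and 1 was below 0 with normexp background correction. They ran from 0.19 to 1.82 with a median of 0.72, against -0.05 over all probes. Again 0 of 13 were called by limma and 0 had an unadjusted p under 0.05, where 23.8% of all probes were called. The treated and untreated females did not overlap for 1 of the 13 probes, the alpha-2u globulin gene probe, against 42.7% of all probes. Single arrays set the size of the difference: its median was 1.60 without female dexamethasone replicate 2, and 0.08 without replicate 3, where 8 of 13 probes stayed above 0. Without female dexamethasone replicate 1, 12 of 13 stayed above 0, and without female vehicle replicate 3, 11 did. Leaving out male vehicle 2 and female dexamethasone 2 together, a setting added after seeing the data, gave 5 of 13 called higher in females given dexamethasone (lowest adjusted p = 0.0358, limma). Those arrays were picked because they read low in these very probes, so the 5 calls support nothing.

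For Mup4l4 the female arrays read -0.53, 0.34 and -0.80 after vehicle and 0.79, -2.04 and 1.73 after dexamethasone. Of the treated arrays 2 lay above and 1 below all untreated ones, and the difference was 0.49 with an interval of -1.42 to 2.39. Mup4l3 followed the same order, at -3.41, -1.84 and -3.09 after vehicle and -1.04, -4.20 and -0.51 after dexamethasone, with a difference of 0.86 (interval -1.25 to 2.97). For Mup5 the difference was 0.20 (interval -1.73 to 2.13). The alpha-2u globulin gene probe was not well above background in any female given vehicle and was so on 2 of 3 arrays after dexamethasone. Its fitted difference was 1.82 with an interval of -1.83 to 5.47 (adjusted p = 0.456, limma, measured means -3.67 and -5.50). The treated mean was 1.35-fold the dimmest signal well above background on the vehicle arrays. With 1 treated array itself at background, this sets no lower limit on a change.

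The difference between the sexes in the dexamethasone effect, tested as an interaction, was called for 0 of the 13 probes by limma, and 0 had an unadjusted p under 0.05. Over all probes 0.0248% were called, 7 in number. The interaction estimates ran from -0.48 to 1.06 with a median of 0.69, and that of Mup4l4 was 0.25 with an interval of -2.44 to 2.95.

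**Figure D2:**
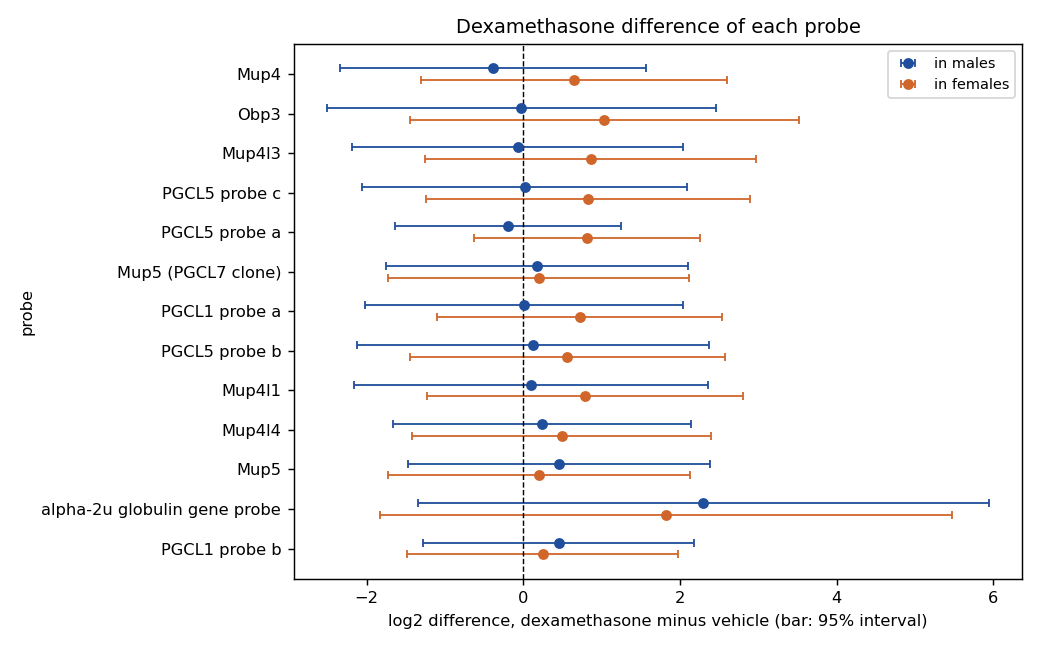
Dexamethasone minus vehicle log2 difference (x axis) of the 13 probes (y axis) in males and in females, with 95% intervals from limma. Every interval crosses 0, and the female differences, 0.19 to 1.82, all lie to the right of it.

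The family varied widely between arrays of a group, and its probes moved together. The pooled within-group SD of the 13 probes had a median of 1.22 log2 units, against 0.36 over all probes, and 98.6% of all probes varied less than that median. In males given vehicle, replicate 2 was the lowest array for 12 of 13 probes, with a median deviation of -1.42 from the group mean, and replicate 3 was the highest for all 13, with a median of 1.28. In females given dexamethasone, replicate 2 was the lowest for all 13 probes (median -1.89) and replicate 3 the highest for all 13 (median 1.41).

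Replicate 3, on slide 5, was also the highest array for all 13 probes in males given dexamethasone, by a median of 0.60. In females given vehicle, by contrast, replicate 2 was the highest for 12 of 13 and the slide 5 array lay below the group mean for 11. Each array is a different pool of animals, so differences between pools and between slides cannot be told apart here. Nor are the probes separate witnesses, since several are alike in sequence.

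Within slides the dexamethasone difference in males ran in opposite directions. On slide 1, with 1 array a group, it was above 0 for all 13 probes (0.38 to 6.67, median 1.39), and on slide 5 it was below 0 for 10 of 13 (-0.97 to 1.13, median -0.63). The slide 1 value rests on male vehicle replicate 2. In females only slide 5 held both treatments, where the difference was above 0 for all 13 probes (1.40 to 2.94, median 2.48). These single pairs have no test.

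The sex difference, in contrast, kept its direction for all 13 probes within slide 5, with medians of -10.80 after vehicle and -7.95 after dexamethasone. Slides 1 and 2, which share a scan session, gave a median of -7.69 after vehicle, from 2 female arrays and 1 male array, again below 0 for all 13. With slide as a fixed block, 12 probes were called after vehicle and 10 after dexamethasone, where Mup4l3, PGCL5 probe c and the alpha-2u globulin gene probe did not pass (adjusted p = 0.0618, 0.0530 and 0.0776, limma). The same fit called 0 probes for dexamethasone in either sex.

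**Figure D3:**
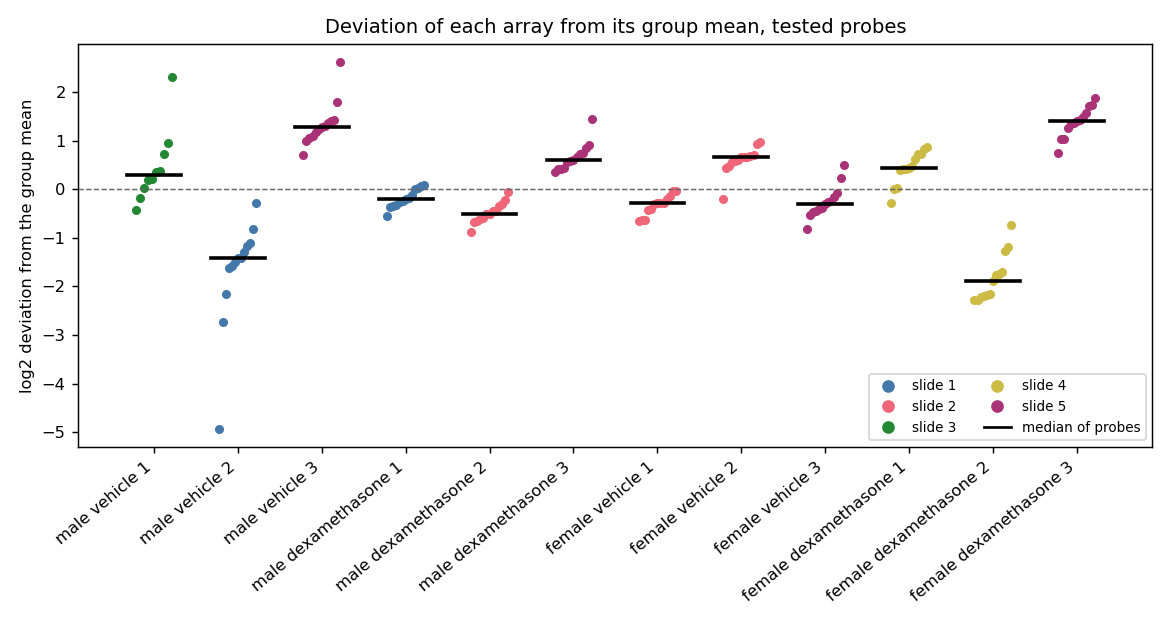
Deviation of each tested probe from its group mean in log2 units (y axis) on each of the 12 arrays (x axis), coloured by slide, with a black bar at the median. Male vehicle 2 and female dexamethasone 2 sit below their groups at medians of -1.42 and -1.89, and 3 of the 4 slide 5 arrays sit above.

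The genes most like the family were sought over the 12 arrays among 12089 genes, by the root mean square difference from the mean centred profile of the 8 probes well above background on all arrays. The closest was Cyp2c13 at 0.59 log2 units, followed by Cyp2c11 (0.96), the steroid dehydrogenase Hsd3b5 (1.03), Dhrs7l1 (1.06) and the estrogen sulfotransferase Sult1e1 (1.25). Since the sex difference is so large, this measure mainly finds genes with a sex difference of like size. Cyp2c13 was lower in females after vehicle by 8.90 on the log2 scale (-8.90 ± 0.47, adjusted p = 7.48e-06, limma).

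On single arrays Cyp2c13 read 8.24, 8.67 and 9.35 in males given vehicle, where Mup4l4 read 8.54, 7.42 and 9.62, so replicate 3 was the highest for both and replicate 2 the lowest for Mup4l4 alone. In females given dexamethasone it read 0.32, -1.30 and 0.52, with replicate 2 the lowest as for the family. Of these 5 genes only Sult1e1 was called for dexamethasone, lower in males (-1.63 ± 0.32, adjusted p = 0.00506), while Hsd3b5 had -1.84 ± 0.59 (adjusted p = 0.0532) and was called lower in males under 10 alternative settings, the replicate block among them (adjusted p = 0.0167).

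The injection acted on known glucocorticoid targets in the same livers. All 7 measured glucocorticoid-induced genes rose in both sexes, with medians of 3.04 in males and 2.71 in females. Over all probes 19.7% and 23.8% were called, in either direction. Fkbp5, a chaperone partner of the receptor, stood at 1.28, 1.02 and 1.30 in males given vehicle and 5.20, 5.21 and 5.69 after dexamethasone. The groups were far apart, with a difference of 4.16 ± 0.18 (adjusted p = 2.64e-06, limma).

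Of 22 other lipocalins on the list, 10 were measured. Between the sexes 0 were called by limma after vehicle (3 at an unadjusted p under 0.05, differences from -2.28 to 1.07) and 0 after dexamethasone (1 at that p, -1.37 to 0.79). The lowest of these, Ptgds at -1.37, was called lower in females given dexamethasone under 4 alternative settings, among them the replicate block (adjusted p = 0.0101, limma). Dexamethasone raised 2 of the 10 in males and 3 in females and lowered 0, shares near the 19.7% and 23.8% of all probes called in either direction. Orm1, an acute phase plasma protein, rose by 3.05 ± 0.46 in males and 2.70 ± 0.46 in females (adjusted p = 0.00118 and 0.00225, limma).
Ptgds, which makes prostaglandin D2 and carries lipophilic molecules, rose by 3.09 ± 0.36 and 1.74 ± 0.36 (adjusted p = 0.000248 and 0.00618). Obp1f, an odorant-binding protein, rose in females (2.42 ± 0.57, adjusted p = 0.0124) and had 1.11 ± 0.57 in males (adjusted p = 0.221).

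Of 32 regulators of the family and of sex-biased liver expression, 30 were measured. After vehicle 2 were higher and 1 lower in females, and after dexamethasone 3 were higher and 1 lower. Of all probes 1.67% and 2.23% were called in these comparisons. The prolactin receptor Prlr, a female-biased growth hormone target, was higher in females by 7.31 ± 0.98 after vehicle (adjusted p = 0.00305, limma). Cux2, a repressor of male-biased genes in female liver, was higher in females by 6.31 ± 0.46 (adjusted p = 5.2e-05), and the pioneer factor Foxa1 was lower by 0.80 (-0.80 ± 0.17, adjusted p = 0.0442, a call that most alternative settings lost).

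Dexamethasone raised 3 and lowered 7 of the 30 regulators in males, and raised 6 and lowered 6 in females, where 19.7% and 23.8% of all probes were called. Cux2 fell by 1.86 in males (-1.86 ± 0.46, adjusted p = 0.0166, limma) and by 3.46 in females (-3.46 ± 0.46, adjusted p = 0.000504). Foxa2, a pioneer factor of liver genes, fell by 2.67 in males and 2.08 in females (adjusted p = 0.000531 and 0.00218), fitted differences of -2.67 ± 0.35 and -2.08 ± 0.35.
Socs2, which damps growth hormone signalling, fell by 0.72 and 1.81 (adjusted p = 0.0311 and 0.000194), fitted differences of -0.72 ± 0.20 and -1.81 ± 0.20, of which the male call was lost without any 1 of 5 male arrays, with no filter, normexp or median scaling, and in the authors' deposited table (adjusted p = 0.0639 to 0.115 over these and the setting without both low arrays). Bcl6, a repressor active in male liver, rose in females by 2.67 ± 0.62 (adjusted p = 0.0107) and had 1.63 ± 0.62 in males (adjusted p = 0.0945). With slide as a fixed block the male difference was called (2.29, adjusted p = 0.0413) and the female was not (adjusted p = 0.0956). Esr1, the estrogen receptor, rose in females by 1.51 ± 0.18 (adjusted p = 0.000263), as did Foxa1 by 1.47 ± 0.17 (adjusted p = 0.000205). With normexp background correction the Esr1 difference in females was 0.11 and the Cux2 difference in males -0.40. Neither was then called (adjusted p = 0.651 and 0.282, limma). The interaction test of the dexamethasone effect between the sexes called 0 of the 30 regulators (limma, 8 at an unadjusted p under 0.05), and Cux2 with normexp background correction (adjusted p = 0.00413).

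Female-biased liver genes served as the counterpart of the family. Of 8, all measured, 6 were higher in females after vehicle and 7 after dexamethasone. The shares of all probes called were 1.67% and 2.23%, in either direction. A1bg, a plasma glycoprotein, was higher by 11.49 ± 1.19 after vehicle (adjusted p = 0.000532, limma). Sult2a1, a sulfotransferase of steroids, was higher by 4.40 ± 0.56 (adjusted p = 0.0022) and fell with dexamethasone in males by 3.49 (-3.49 ± 0.56, adjusted p = 0.00164).

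The 6 named genes lie in a cluster on chromosome 5 of the rat assembly GRCr8, in the order Obp3, Mup4l4, Mup4, Mup5, Mup4l1 and Mup4l3, with other family genes and pseudogenes between them. The promoters of these genes, whose probes moved together on the arrays, were read from RefSeq, all 6 matched by symbol. In windows of 250 bases before to 50 after the annotated start they were 90.3% to 97.5% identical. Shown here are the 250 bases before the start of the closest pair, on the minus strand of GRCr8, at chr5:79640676-79640925 for Obp3 and chr5:79999696-79999945 for Mup5. Capitals mark TATAAA and AGAACA.
Obp3: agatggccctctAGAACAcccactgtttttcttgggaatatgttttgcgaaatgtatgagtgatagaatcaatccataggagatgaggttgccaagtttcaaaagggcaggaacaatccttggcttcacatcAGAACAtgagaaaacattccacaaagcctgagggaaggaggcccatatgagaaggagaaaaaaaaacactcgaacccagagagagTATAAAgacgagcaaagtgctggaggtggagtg
Mup5: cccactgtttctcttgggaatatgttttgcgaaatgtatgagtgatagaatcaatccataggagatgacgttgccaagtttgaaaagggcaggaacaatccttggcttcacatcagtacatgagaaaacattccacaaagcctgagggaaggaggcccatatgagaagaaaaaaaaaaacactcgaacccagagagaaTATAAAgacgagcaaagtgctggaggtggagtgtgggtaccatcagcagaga
TATAAA, searched on both strands as all motifs here, was present in 6 of 6, against 14.3% of 27457 rat promoters of the same length. AGAACA, a half-site of steroid receptors, had 2 matches in Obp3 and none in the other 5, against 20.1% of promoters with a match. The full palindromic glucocorticoid response element, AGAACA and its reverse complement with 3 bases between, was in none of the 6 and in 0.007% of all. TTCNNNGAA, a motif of STAT factors, was in Mup4l1 alone, against 8.68% of promoters, and TTNNGNAA, a core of C/EBP sites, was in 6 of 6, against 40.8%. The 6 windows are near copies of each other, so 6 of 6 is not a count of separate observations. A match is a description of these letters and not a site, and the windows start at annotated starts that differ between the genes.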

How the data were processed

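Liver RNA was measured on 12 single-colour arrays. The deposited intensity values, in arbitrary units, came, per the file headers, from version 9.1.3.1 of Agilent Feature Extraction (9.1 in the submitters' processing notes), protocol GE1-v5_91_0806. The authors' deposited value table holds log10 values of the same arrays, with its scaling not given in the sources used here, and was used as an alternative source only. The processed signal, already background-subtracted, was taken to log2, and each array's 75th percentile over non-control spots was subtracted. The 1639 control spots were left out, 211 spots with outlier flags were set to missing, and a probe took the mean of its spots. The 28175 probes tested had 3 or more of the 12 arrays well above background and 2 or more usable arrays in each group.

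A mean for each of 4 groups was fitted with limma 3.58.1 (R 4.3.3, 8 residual and 2.44 prior degrees of freedom), with 5 contrasts and Benjamini-Hochberg adjustment over all probes at 0.05. The steps were tested on simulated data. For a probe not well above background on any array of a group, the fold was a lower bound against the dimmest signal well above background on each of those arrays. The bound used group means and carries no sampling error. A reference table gave 20270 of the 41012 probes a symbol. A listed gene stood by its brightest probe. Named were all members, up to 8 called genes from the lists of lipocalins and regulators, up to 3 from the lists of male-biased, female-biased and glucocorticoid-induced genes, and the 5 genes of most alike profile. Members and lists were chosen with earlier results of these data known. Slides were read from array barcodes and scan sessions from headers. Sequences came from the scanner files and RefSeq (GRCr8), and positions of the probes in the genome were not analysed here. Python 3.11.15, pandas 2.3.3 and matplotlib 3.10.9 drew the figures.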

Additional observations from a re-analysis of the deposited data

How the results depend on the processing

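The sex difference of the family kept its direction under every alternative tried, with 12 to 13 probes called after vehicle and 10 to 13 after dexamethasone where all 13 were kept. All but 1 of the alternatives gave 0 dexamethasone or interaction calls for the family. The exception, added after seeing the data, without male vehicle 2 and female dexamethasone 2 together, gave 5 calls for dexamethasone in females (adjusted p from 0.0358 to 0.0479 in limma) and 0 in males or for the interaction; it removes arrays by the values under test and supports nothing. Leaving out each array in turn gave 12 to 13 called probes after vehicle, 12 to 13 after dexamethasone and 0 for dexamethasone in either sex. Some counts moved because fewer probes were tested: members taken by accession alone gave 6 of 6 called after vehicle and 6 of 6 after dexamethasone, a filter of well above background on all 12 arrays gave 8 of 8 in either treatment, and 1 row per gene 8 of 9 after vehicle and 9 of 9 after dexamethasone.

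Same-numbered arrays of different groups deviated together at correlations of 0.005 to 0.59, with 11 of 18 over 0.1, and 8 of 12 arrays were closest to an array of their own number. All 7 same-numbered pairs on a shared slide were over 0.1 (median 0.35), against 4 of 11 on different slides (median 0.08). Number and slide cannot be told apart in those 7 pairs. The labels name no pairing, so the main fit held none and the number was an alternative block. With the replicate number as a block, 13 probes were called after vehicle, 13 after dexamethasone, and 0 for dexamethasone in males or females. With slide as a random block (correlation within slide 0.518) 13 and 13 were called.

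Among the other named genes, 9 of 45 calls were lost and 14 of 65 results without a call gained one under at least 1 setting. Background correction by normexp ended the calls of Esr1 and Obp1f in females and of Cux2 and Socs2 in males, at adjusted p of 0.651, 0.210, 0.282 and 0.0639 in limma. Their log2 differences were then 0.11, 0.41, -0.40 and -0.48. Slide as a fixed block ended those of Bcl6 and Obp1f in females and of Prlr after vehicle, at 0.0956, 0.181 and 0.0525, and gave Bcl6 a call in males (0.0413), as did slide as a random block (0.0232). The replicate block gave calls to Hsd3b5 in males (0.0167) and to Ptgds between the sexes after dexamethasone (0.0101). The male call of Cux2 was also lost without male vehicle 2, male vehicle 3 or male dexamethasone 1 (0.0528 to 0.0646). The causes were not tested.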
